A study of Arabidopsis thaliana with 24 samples.

Results

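The FLC clade and its partner SVP are 7 MADS-box genes that repress flowering in Arabidopsis thaliana. The clade holds FLC (AT5G10140), FLM (also MAF1, AT1G77080), MAF2 (AT5G65050), MAF3 (AT5G65060), MAF4 (AT5G65070) and MAF5 (AT5G65080), and SVP is AT2G22540. The 7 loci were taken by locus identifier from 27655 loci in the deposited count files, with the transcript models of each locus summed. All 7 passed the filter on low counts that left 18797 loci for testing.

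The study measured polyadenylated RNA of whole soil-grown Arabidopsis thaliana seedlings, 14 days old, by a 3′-tag method that sequences transcript ends. Plants came from natural long days outdoors in July 2014 (natural LD 2014), from natural long days outdoors in June 2013 (natural LD 2013), from a chamber with long days, added 730 nm far-red light at a red to far-red ratio of 1 and a temperature programme between 15.8 and 22.8 °C (LD+FR+TEMP), and from standard laboratory long days (lab LD). Each setting was sampled 16 h (ZT16, evening) and 4 h (ZT4, morning) after dawn, with 3 libraries per setting and time, 24 in all. Outdoor seed was chilled after sowing at 4 °C for 3 days or longer before it went to an open cage under a blanket that lowers light without altering the red to far-red ratio. The labels give no accession, and the deposited column names carry the prefix wt for all groups. Nothing says whether the 3 libraries of a group came from separate plantings. Each p-value below thus measures only the spread between libraries within groups, which the main fit estimated from all 24 together. Each outdoor group is a single season at 1 cage, and outdoor years differ in month as well as year.

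FLC and SVP encode MADS-box transcription factors that bind regulatory DNA of the floral activators FT and SOC1 and hold their transcription down. FLC is switched on by the FRIGIDA complex and chromatin-opening factors, is kept low by the autonomous pathway, and is silenced in prolonged cold by Polycomb proteins with VIN3. FLM and MAF2 to MAF4 act beside SVP in ways that depend on ambient temperature, in part through alternative splicing of FLM and MAF2, and MAF5 is a further repressor of the same clade.

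The clade lies in 3 places of the genome, given here on the RefSeq annotation of TAIR10.1, since the count files hold no coordinates and the submitters' processing notes name TAIR10. FLC spans chr5:3173382-3179448 on the minus strand. FLM spans chr1:28955483-28960234 on the plus strand. MAF2, MAF3, MAF4 and MAF5 follow each other on the plus strand at chr5:25982254-25986435, chr5:25987309-25991412, chr5:25992193-25996202 and chr5:25997504-26002619, with 873, 780 and 1301 bases between neighbours. SVP spans chr2:9579647-9583901 on the plus strand.

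The DNA just before each annotated start was compared between members. It lies outside the annotated transcripts, so likeness there does not tell whether a read belongs to 1 locus. In the 250 bases upstream, FLM, MAF2 and MAF3 shared a run of 18 bases and MAF4 and MAF5 one of 20 bases. Pairwise, FLM and MAF3 shared 20 bases and MAF2 and MAF4 18, while the longest run FLC or SVP shared with any other member was 7 to 10 bases. Runs as short were found for FLM with MAF4 or MAF5 and MAF3 with MAF4 or MAF5 (8 bases each) and for MAF2 with MAF5 (10 bases). Stretches of 70 bases around the shared runs follow from TAIR10.1, plus strand, with the run in capitals, at chr1:28955385-28955454 for FLM, chr5:25982059-25982128 for MAF2, chr5:25987180-25987249 for MAF3, chr5:25992040-25992109 for MAF4 and chr5:25997382-25997451 for MAF5.
FLM: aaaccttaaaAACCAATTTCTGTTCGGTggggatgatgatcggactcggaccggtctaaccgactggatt
MAF2: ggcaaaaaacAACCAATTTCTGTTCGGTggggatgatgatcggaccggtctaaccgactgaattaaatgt
MAF3: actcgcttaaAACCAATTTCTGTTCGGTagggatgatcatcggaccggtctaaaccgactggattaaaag
MAF4: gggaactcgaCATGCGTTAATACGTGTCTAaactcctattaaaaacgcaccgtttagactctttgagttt
MAF5: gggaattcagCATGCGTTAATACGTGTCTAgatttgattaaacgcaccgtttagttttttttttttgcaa
Between FLM and MAF2 alone the longest shared run was 35 bases. The spliced transcripts were compared by another measure, shared words of 50 bases, which cannot be set against these runs. Of all such words, 0.25% of FLM's, 0.374% of MAF2's and 1.66% of MAF3's occurred in another locus. None of FLC's, MAF4's, MAF5's or SVP's did. In the last 500 bases, where 3′ tags fall, 1.42% of MAF2's words and 1.67% of MAF3's were shared, so reads could be confused between MAF2 and MAF3 over a small part of their ends. Strand use in the counting is not given in the sources used here, and FLC and MAF4 are known to have antisense transcripts, whose reads cannot be told apart from theirs.

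A set of 4 short letter patterns tied to light, the circadian clock or MADS-box binding were looked for on both strands of the same 250-base windows, because the study varied light and time of day. The patterns were the G-box CACGTG, the evening element AAAATATCT, the CCA1-binding site AAAAATCT and the CArG box. The FLC window held a G-box, whose first base lay 146 bases upstream of the annotated start, and an evening element 59 bases upstream. It is printed from TAIR10.1 chr5:3179449-3179698, minus strand, with both in capitals.
FLC: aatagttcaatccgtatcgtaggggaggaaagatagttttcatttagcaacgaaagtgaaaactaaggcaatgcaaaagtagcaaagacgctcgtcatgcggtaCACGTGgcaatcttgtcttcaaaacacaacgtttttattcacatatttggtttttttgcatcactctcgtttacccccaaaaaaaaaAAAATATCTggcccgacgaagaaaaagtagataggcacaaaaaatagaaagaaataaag
Of 31344 windows of this length before annotated genes, 5.93% held the G-box and 2.22% the evening element. MAF2 held the CCA1-binding site 212 bases upstream, found in 6.39% of windows, and MAF5 the reverse complement of the evening element 168 bases upstream. The windows of FLM, MAF3, MAF4 and SVP held none of the 4, and no member's window held the CArG box, which 2.36% of all windows held. These are matches of letters only.

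Library totals were 6543615 to 10711582 counts outdoors and 12069812 to 16089156 indoors, so outdoor values of the low members rest on fewer counts. Levels below are CPM, counts relative to library sizes that were scaled by the trimmed mean of M-values, and levels of different genes are not ranked. Leaf markers were abundant in every library of these whole seedlings (summed CPM of 4 genes, 28012 to 67768), and 3 of the 4 were higher than in lab LD in both outdoor years at both times. At ZT4 all 4 differed from lab LD in both years at an adjusted p below 0.05 with edgeR, and the direction of the fourth is not given here. In these comparisons 29.0% to 44.3% of all loci were called. The sum rests largely on RBCS1A, at 19648 to 44140 CPM, and can hide a marker that moves otherwise. At ZT4 their sum was 58281 to 67768 CPM in natural LD 2014, 49559 to 51026 CPM in natural LD 2013, 43842 to 47193 CPM in LD+FR+TEMP and 40920 to 41883 CPM in lab LD. Their part in the differences of the members was not tested. In bulk tissue, fewer cells of a type and less RNA per cell cannot be told apart. No pair of replicate libraries agreed within sampling noise. The widest gaps were those of natural LD 2014 ZT4 replicate 1 from replicates 2 and 3 (chi-square per locus 30.6 and 18.8) and of LD+FR+TEMP ZT16 replicate 2 from replicate 3 (24.3). Lab LD ZT4 replicate 3 stood about as far from replicates 1 and 2 (18.7 and 18.6). The measure also grows with depth. Calls that change without those libraries are named with the results. All differences are log2 fold changes ± SE from edgeR's quasi-likelihood test over 18797 loci, with Benjamini-Hochberg adjusted p-values, and a difference is said to rise, fall or pass only where the adjusted p was below 0.05.

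FLC, the repressor silenced by vernalization, was low in natural LD 2014 and varied more across the 8 groups than the other members. Its highest group mean was 7.01 times its lowest. The corresponding ranges were 3.03-fold for MAF5, 2.81-fold for MAF4, 1.77-fold for SVP, 1.70-fold for MAF2, 1.62-fold for FLM and 1.47-fold for MAF3.

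In the evening (ZT16), FLC stood at 1.53, 2.05 and 0.92 CPM in natural LD 2014, at 7.08, 5.28 and 6.87 CPM in natural LD 2013, at 8.27, 7.95 and 10.46 CPM in LD+FR+TEMP, and at 6.30, 6.76 and 6.41 CPM in lab LD. In the morning (ZT4) it stood at 2.20, 2.57 and 1.97 CPM in natural LD 2014, at 6.01, 4.86 and 5.40 CPM in natural LD 2013, at 12.43, 10.0001 and 9.12 CPM in LD+FR+TEMP, and at 6.10, 4.50 and 7.02 CPM in lab LD. At both times all 3 natural LD 2014 libraries lay below every library of the other settings, and all 3 LD+FR+TEMP libraries lay above them, while natural LD 2013 and lab LD overlapped. Behind the natural LD 2014 values stood 9 to 22 counts per library.

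**Figure D1:**
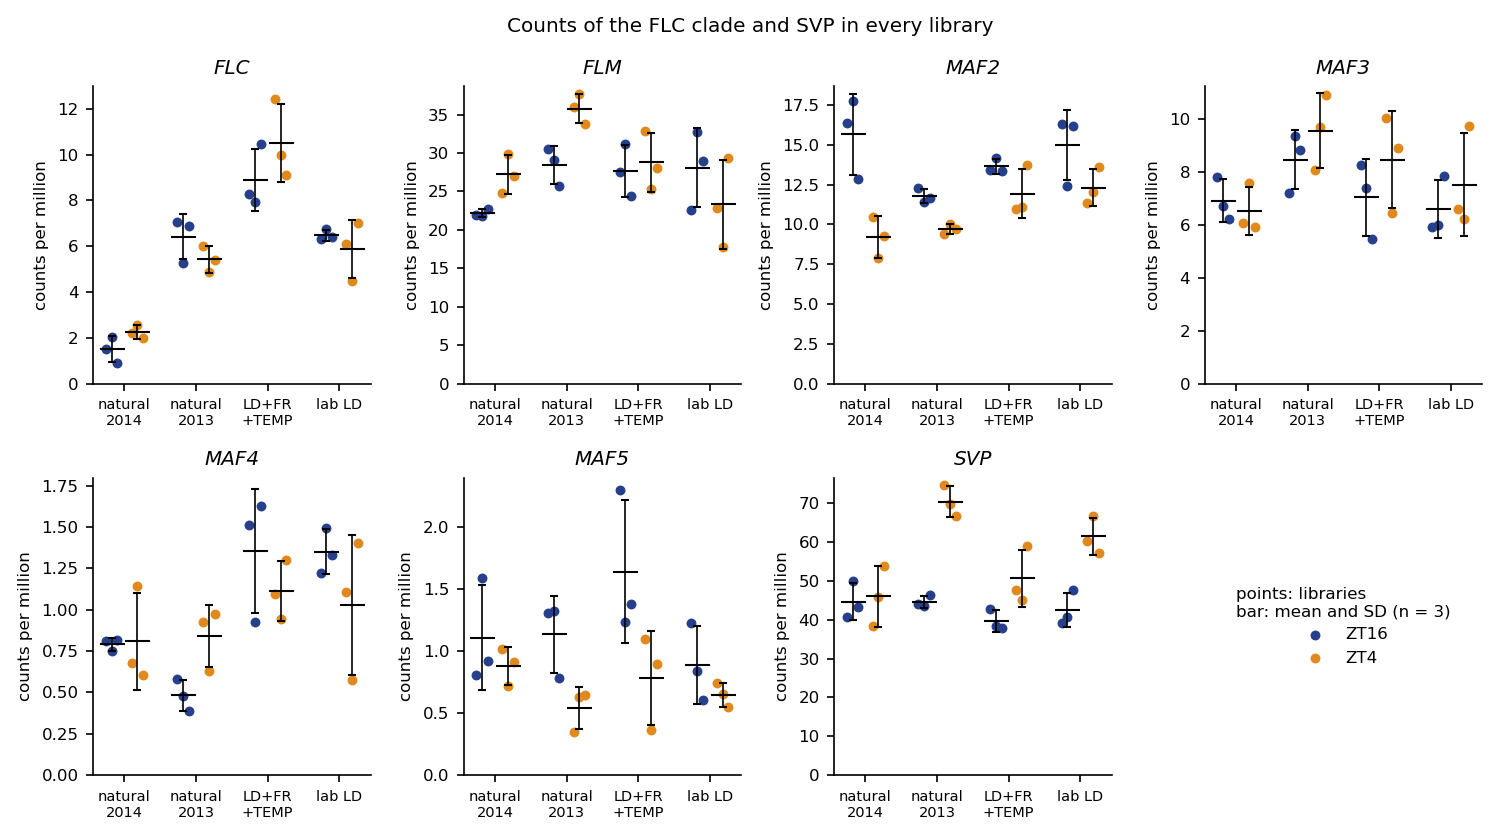
CPM of the 7 members in every library (points), with the mean and SD of each group (n = 3), for natural LD 2014, natural LD 2013, LD+FR+TEMP and lab LD from left to right, ZT16 left of ZT4. The natural LD 2014 libraries are lowest for FLC, at 0.92 to 2.57 CPM, and the highest SVP value, 74.80 CPM, is a natural LD 2013 library at ZT4.

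Against lab LD, FLC fell in natural LD 2014 by 2.09 ± 0.23 at ZT16 (4.27-fold, edgeR adjusted p = 1.37e-07) and by 1.38 ± 0.24 at ZT4 (2.61-fold, adjusted p = 4.16e-05). In natural LD 2013 the differences from lab LD were -0.02 ± 0.19 at ZT16 (adjusted p = 0.943) and -0.11 ± 0.20 at ZT4 (adjusted p = 0.708), with 95% intervals of -0.43 to 0.38 and -0.53 to 0.31. The test of the 2 years against each other passed at both times: FLC was lower in natural LD 2014 than in natural LD 2013 by 4.19-fold at ZT16 (-2.07 ± 0.24, edgeR adjusted p = 1.51e-05) and by 2.41-fold at ZT4 (-1.27 ± 0.25, adjusted p = 0.000365).

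LD+FR+TEMP stood on the other side of lab LD. FLC rose there by 0.84 ± 0.17 at ZT4 (1.78-fold, edgeR adjusted p = 0.00129). At ZT16 the difference was 0.45 ± 0.17 with an edgeR adjusted p of 0.142, although the libraries did not overlap. Set against LD+FR+TEMP, the outdoor plants were lower in 3 of 4 tests: natural LD 2014 by 5.84-fold at ZT16 (-2.55 ± 0.22, edgeR adjusted p = 6.47e-09) and 4.65-fold at ZT4 (-2.22 ± 0.23, adjusted p = 2.85e-08), and natural LD 2013 by 1.93-fold at ZT4 (-0.95 ± 0.19, adjusted p = 0.000612). The fourth, natural LD 2013 at ZT16, gave -0.48 ± 0.19 with an edgeR adjusted p of 0.0681. Counting only the largest transcript model gave -1.20 (adjusted p = 0.0105). That model held 27.4% of FLC counts in natural LD 2013 and 45.3% in LD+FR+TEMP at ZT16, so the value also carries its share. At ZT16 root markers were also low in natural LD 2014 against LD+FR+TEMP, with 6 of 10 lower and a median of -0.95. There 29.6% of loci were called in either direction. At ZT4 3 were lower and 1 higher, where 34.1% of loci were called. The sum of 11 root genes at ZT4 was not low, at 222 to 326 CPM in natural LD 2014 and 215 to 265 CPM in LD+FR+TEMP. Against lab LD in natural LD 2014, 1 of 10 root markers was called at ZT16 and 0 at ZT4 with edgeR, DESeq2 or limma-trend, with 0 at an unadjusted p below 0.05 at ZT4. Of all loci, edgeR called 35.8% and 44.3% there. The part of root tissue in the FLC differences was not tested. All 8 FLC calls were kept under each alternative processing that was run, leaving out any single library included.

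FLC passed the test between evening and morning in 0 of 4 settings with edgeR, with 0 at an unadjusted p below 0.05, 0 with DESeq2 and 1 with limma-trend. ZT16 over ZT4 was -0.57 ± 0.30 in natural LD 2014, 0.23 ± 0.21 in natural LD 2013, -0.24 ± 0.16 in LD+FR+TEMP and 0.14 ± 0.18 in lab LD, with edgeR adjusted p-values of 0.128, 0.433, 0.32 and 0.639. The natural LD 2014 value did pass with limma-trend (-0.59, adjusted p = 0.0243), with libraries thinned to 1 depth (-1.08, adjusted p = 0.00661) and without natural LD 2014 ZT16 replicate 2 (-0.86, adjusted p = 0.0426). With thinned libraries the FLC change in natural LD 2014 also passed as lower than that in lab LD (-1.29, edgeR adjusted p = 0.00711). It passed as lower than that of natural LD 2013 too (-1.46, adjusted p = 0.0045). On the full counts edgeR put these differences at -0.71 (adjusted p = 0.132) and -0.80 (adjusted p = 0.146). Thinning was a single random draw from low FLC counts, and the spread between draws was not measured.

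SVP, which partners FLC and FLM on FT and SOC1 DNA, differed mainly by time of day and in the morning. At ZT16 it stood at 40.81, 49.96 and 43.41 CPM in natural LD 2014, at 44.07, 43.56 and 46.41 CPM in natural LD 2013, at 42.86, 38.46 and 37.85 CPM in LD+FR+TEMP, and at 39.28, 40.84 and 47.63 CPM in lab LD. At ZT4 it stood at 38.35, 45.86 and 53.93 CPM in natural LD 2014, at 74.80, 69.74 and 66.80 CPM in natural LD 2013, at 47.80, 45.15 and 59.09 CPM in LD+FR+TEMP, and at 60.39, 66.82 and 57.27 CPM in lab LD. The evening libraries lay between 37.85 and 49.96 CPM, with the settings overlapping, and the morning libraries between 38.35 and 74.80 CPM.

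In the evening SVP was lower than in the morning in natural LD 2013 by 1.58-fold (-0.66 ± 0.12, edgeR adjusted p = 0.000117), and in lab LD by 1.44-fold (-0.53 ± 0.12, adjusted p = 0.0013). In LD+FR+TEMP it was lower by 1.28-fold (-0.35 ± 0.12, edgeR adjusted p = 0.0304), a call lost with the largest transcript model only (-0.36, adjusted p = 0.0517) and without LD+FR+TEMP ZT4 replicate 3 (-0.23), ZT16 replicate 2 (-0.33) or ZT16 replicate 3 (-0.32). In natural LD 2014 the difference was -0.04 ± 0.12 (edgeR adjusted p = 0.8), with a 95% interval of -0.30 to 0.22. The ZT16 and ZT4 libraries did not overlap in the first 3 of these settings and overlapped in natural LD 2014. Leaf and root markers called at ZT16 against ZT4 were all lower. They were 3 of 4 leaf and 4 of 10 root markers in natural LD 2014, 2 and 4 in natural LD 2013, 2 and 2 in LD+FR+TEMP and 2 and 2 in lab LD. In the same order of settings, 45.7%, 35.5%, 23.5% and 21.9% of all loci were called in either direction. The root counts are thus near the background. The part of these markers in the SVP change was not tested.

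The difference between settings in this evening-to-morning change was itself tested. The SVP change in natural LD 2014 exceeded that in natural LD 2013 by 0.61 ± 0.17 (edgeR adjusted p = 0.014), a call lost without natural LD 2014 ZT16 replicate 2 (0.52, adjusted p = 0.0538). It exceeded that in lab LD by 0.49 ± 0.17 (adjusted p = 0.031), a call lost when only these groups were fitted (0.47), with thinned libraries (0.43), and without natural LD 2014 ZT4 replicate 1 (0.36) or 2 (0.47), natural LD 2014 ZT16 replicate 2 (0.40), lab LD ZT4 replicate 2 (0.42) or lab LD ZT16 replicate 1 (0.42) or 2 (0.46). For natural LD 2013 against lab LD it was -0.13 ± 0.17 (edgeR adjusted p = 0.668), and for LD+FR+TEMP against lab LD 0.18 ± 0.17 (adjusted p = 0.651).

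In the morning, SVP in natural LD 2014 was below natural LD 2013 by 1.53-fold (-0.61 ± 0.12, edgeR adjusted p = 0.000356) and below lab LD by 1.33-fold (-0.42 ± 0.12, adjusted p = 0.00685). The second of these calls was lost without natural LD 2014 ZT4 replicate 1 (-0.31, adjusted p = 0.0538), the lowest of the 3. Natural LD 2013 was above LD+FR+TEMP by 1.39-fold (0.47 ± 0.12, edgeR adjusted p = 0.00461), with no overlap of libraries. Natural LD 2013 against lab LD gave 0.20 ± 0.12 (adjusted p = 0.219), and LD+FR+TEMP against lab LD gave -0.28 ± 0.12 (adjusted p = 0.106), which passed without LD+FR+TEMP ZT4 replicate 3 (-0.40, adjusted p = 0.0302). In the evening 0 of 6 comparisons between settings passed for SVP with edgeR, 0 had an unadjusted p below 0.05, and DESeq2 and limma-trend called 0. The log2 differences of SVP in those 6 ran from -0.10 to 0.17.

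**Figure D2:**
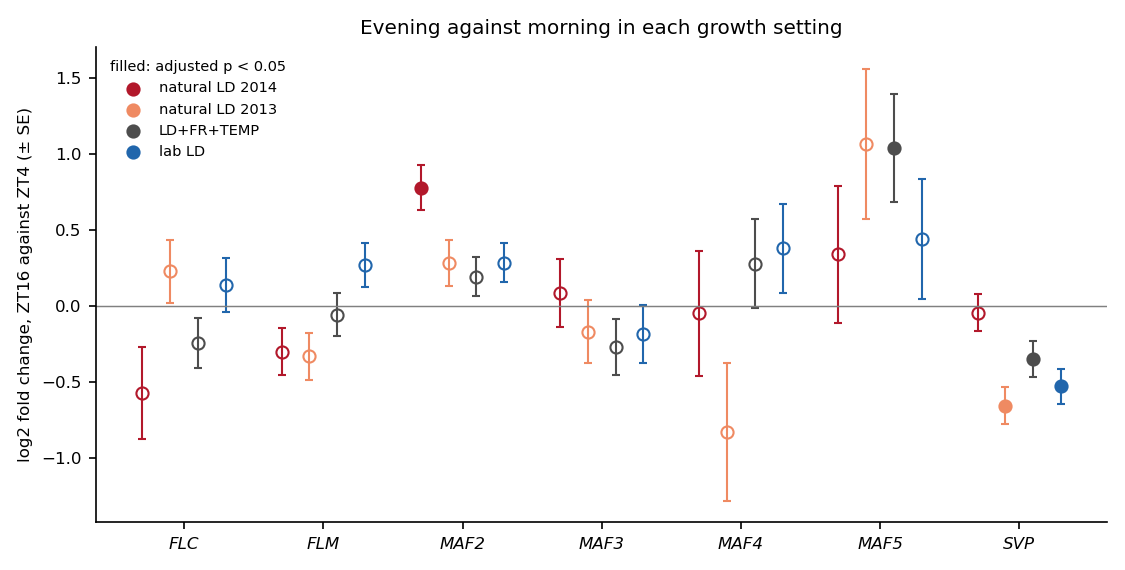
Log2 fold change of ZT16 over ZT4 (± SE) for the 7 members in natural LD 2014, natural LD 2013, LD+FR+TEMP and lab LD, from left to right within each gene, with filled points at an adjusted p below 0.05. SVP lies below 0 in natural LD 2013 (-0.66), LD+FR+TEMP (-0.35) and lab LD (-0.53) and near 0 in natural LD 2014 (-0.04), where MAF2 lies at 0.78.

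FLM, the repressor whose splice forms are known to shift with ambient temperature, differed little. Its morning level in natural LD 2013, at 35.96, 37.61 and 33.78 CPM, lay above that of lab LD, at 22.80, 17.83 and 29.34 CPM, by 1.53-fold (0.61 ± 0.15, edgeR adjusted p = 0.00298). These groups did not overlap, and natural LD 2013 ZT4 was also the only group that stood clear of the next lower one for FLM. The call was lost when only the largest transcript model was counted (0.57, adjusted p = 0.103). At ZT4 the natural LD 2014 libraries had 24.83, 29.86 and 26.97 CPM and those of LD+FR+TEMP 32.92, 25.29 and 28.11 CPM, and both overlapped lab LD.

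At ZT16 FLM stood at 21.94, 21.76 and 22.72 CPM in natural LD 2014, at 30.49, 29.04 and 25.67 CPM in natural LD 2013, at 27.50, 31.12 and 24.37 CPM in LD+FR+TEMP, and at 22.64, 32.71 and 28.95 CPM in lab LD. With edgeR, FLM passed in 0 of 6 evening comparisons between settings (3 at an unadjusted p below 0.05) and in 0 of 4 comparisons of evening with morning (1 at an unadjusted p below 0.05), and DESeq2 and limma-trend called 0 in both. The evening difference of natural LD 2014 from lab LD was -0.34 ± 0.15 (adjusted p = 0.0721), and it passed without lab LD ZT16 replicate 1 (-0.49), the lowest lab LD library. When only the compared groups were fitted, FLM passed as lower at ZT16 than at ZT4 in natural LD 2014 (-0.32, adjusted p = 0.0419) and natural LD 2013 (-0.34, adjusted p = 0.00936), and in 4 comparisons of settings: natural LD 2014 against lab LD at ZT16 (-0.34), natural LD 2014 against natural LD 2013 at ZT16 (-0.37) and ZT4 (-0.42), and natural LD 2013 against LD+FR+TEMP at ZT4 (0.32). Single libraries decided 4 further FLM values. Without lab LD ZT4 replicate 3, edgeR called FLM higher than in lab LD at ZT4 in LD+FR+TEMP (0.50, against 0.30 with all libraries) and in natural LD 2014 (0.42, against 0.22), and higher at ZT16 than at ZT4 in lab LD (0.46, against 0.27). Without natural LD 2014 ZT4 replicate 2, FLM passed as lower in natural LD 2014 than in natural LD 2013 at ZT4 (-0.47, against -0.39 ± 0.15 and adjusted p = 0.0572 with all libraries), as it did with limma-trend (-0.40, adjusted p = 0.0386). The difference between settings in the evening-to-morning change passed for FLM in 2 of 4 tests. The change in natural LD 2013 was below that of lab LD (-0.60 ± 0.21, edgeR adjusted p = 0.0497) and so was that in natural LD 2014 (-0.57 ± 0.21, adjusted p = 0.0453). Within each setting that change was -0.30 ± 0.16 in natural LD 2014, -0.33 ± 0.15 in natural LD 2013 and 0.27 ± 0.15 in lab LD. Both calls sat at the threshold: the one for 2013 was lost in 14 of 20 alternatives, and the one for 2014 in 13 of 20. For 2013 it was lost without any 1 of the 6 natural LD 2013 libraries, replicate 1 or 2 of lab LD ZT4, or replicate 2 or 3 of lab LD ZT16 (-0.65 to -0.44). For 2014 it was lost without natural LD 2014 ZT4 replicate 2 or 3, any natural LD 2014 ZT16 library, replicate 1 or 2 of lab LD ZT4, or replicate 2 or 3 of lab LD ZT16 (-0.59 to -0.41).

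MAF2, which delays flowering after short cold spells and in cool conditions, was higher in the evening than in the morning in natural LD 2014. Its ZT16 libraries there had 16.36, 17.74 and 12.84 CPM and its ZT4 libraries 10.47, 7.86 and 9.24 CPM, with no overlap. The rise was 1.71-fold (0.78 ± 0.15, edgeR adjusted p = 9.81e-05) and was kept under each alternative run. The other settings gave changes of the same sign that did not pass: 0.28 ± 0.15 in natural LD 2013, 0.19 ± 0.13 in LD+FR+TEMP and 0.28 ± 0.13 in lab LD, with edgeR adjusted p-values of 0.155, 0.307 and 0.117. The change in natural LD 2014 exceeded that in lab LD by 0.49 ± 0.20 and that in natural LD 2013 by 0.50 ± 0.21, and neither difference passed (adjusted p = 0.0582 and 0.114). The difference from lab LD passed without natural LD 2014 ZT4 replicate 1 (0.58), natural LD 2014 ZT16 replicate 3 (0.61), lab LD ZT4 replicate 1 (0.55) or lab LD ZT16 replicate 1 or 3 (0.55 each), and that from natural LD 2013 without natural LD 2014 ZT16 replicate 3 (0.62). Without that library MAF2 was also called higher in natural LD 2014 than in natural LD 2013 at ZT16 (0.53, against 0.41 with all libraries), and without lab LD ZT16 replicate 2 it was called higher at ZT16 than at ZT4 in lab LD (0.40).

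Between settings MAF2 was lower in the morning of natural LD 2014. Against lab LD, at 11.34, 12.02 and 13.58 CPM, it fell by 1.34-fold (-0.43 ± 0.15, edgeR adjusted p = 0.0214), and against LD+FR+TEMP, at 10.99, 11.09 and 13.71 CPM, by 1.30-fold (-0.38 ± 0.15, adjusted p = 0.0464). The first call was lost without natural LD 2014 ZT4 replicate 2 (-0.32), without lab LD ZT4 replicate 3 (-0.35) and when only these groups were fitted (-0.43). The second was lost in 8 of 14 alternatives, among them DESeq2 (-0.37, adjusted p = 0.0930). It was also lost without natural LD 2014 ZT4 replicate 2 (-0.28) or 3 (-0.40) and without LD+FR+TEMP ZT4 replicate 3 (-0.27). With the largest transcript model only, the values were -0.74 and -0.73. At ZT4 that model held 25.3% of MAF2 counts in natural LD 2014, 30.9% in lab LD and 32.1% in LD+FR+TEMP. These values thus also carry its share. Natural LD 2013, at 9.36, 10.03 and 9.71 CPM in the morning and 12.28, 11.40 and 11.67 CPM in the evening, did not overlap lab LD at either time, yet edgeR gave adjusted p-values of 0.0712 at ZT4 (-0.34 ± 0.14) and 0.0566 at ZT16 (-0.35 ± 0.14). The ZT16 difference passed without lab LD ZT16 replicate 2 (-0.46) and when only these groups were fitted (-0.34). Both differences passed with the largest transcript model only (-0.77 at ZT4 and -0.70 at ZT16). The same limit holds for these, since that model held 23.0% of MAF2 counts in natural LD 2013 at each time and 29.0% in lab LD at ZT16.

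MAF3, a close copy of MAF2 next to it on the chromosome, passed 0 of 20 tests with edgeR, with 1 at an unadjusted p below 0.05, 0 with DESeq2 and 1 with limma-trend. Its libraries ran from 5.45 to 10.90 CPM. In all, 1 of 16 pairwise comparisons had libraries that did not overlap, natural LD 2014 against natural LD 2013 at ZT4, where 6.08, 7.57 and 5.91 CPM stood against 8.09, 9.72 and 10.90 CPM (-0.55 ± 0.22, edgeR adjusted p = 0.0598). That value passed with limma-trend (-0.54, adjusted p = 0.0323), when only these groups were fitted (-0.57), and without natural LD 2013 ZT4 replicate 1 (-0.66) or natural LD 2014 ZT4 replicate 2 (-0.68). Without lab LD ZT4 replicate 3, MAF3 also passed between natural LD 2013 and lab LD at ZT4 (0.58 against 0.35 with all libraries).

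MAF4, a repressor of the same cluster that is also known to be regulated by an antisense transcript, was lowest in the evening of natural LD 2013. Its libraries there had 0.58, 0.48 and 0.39 CPM (4, 4 and 3 counts), against 1.51, 0.92 and 1.63 CPM in LD+FR+TEMP (23, 15 and 26 counts) and 1.22, 1.49 and 1.33 CPM in lab LD (20, 25 and 22 counts). All 3 lay below every library of both chambers. The fall was 2.78-fold against LD+FR+TEMP (-1.48 ± 0.39, edgeR adjusted p = 0.008) and 2.78-fold against lab LD (-1.47 ± 0.39, adjusted p = 0.00569). MAF4 had at most 9 counts in any outdoor library, so it passed the filter, with its minimum count of 10, through chamber libraries. These are the libraries in which it is called higher. Both calls were kept in all 12 alternatives in which MAF4 could be tested, the fit without a filter among them. It failed the filter once libraries were thinned or only its largest transcript model was counted.

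Root markers were low in the same libraries: the summed CPM of 11 root genes was 79.1 to 89.8 in natural LD 2013 at ZT16, against 214 to 263 in the LD+FR+TEMP libraries and 153 to 174 in those of lab LD. Of 10 root markers tested, 9 were lower in natural LD 2013 than in LD+FR+TEMP at ZT16 and 3 were lower than in lab LD, with medians of -1.80 and -0.62. Over all loci, 21.0% and 29.1% were called in those comparisons in either direction, so the 3 of 10 against lab LD is near the background. The root hair regulator RHD6 was at 0 in 5 libraries, EXP18 in 3 and EXP7 in 1, and the other 8 were detected in all 24. Their part in the MAF4 difference was not tested. In natural LD 2014 at ZT16 MAF4 had 0.81, 0.75 and 0.82 CPM, below every chamber library of that time, with -0.76 ± 0.33 against lab LD (edgeR adjusted p = 0.0685) and -0.77 ± 0.33 against LD+FR+TEMP (adjusted p = 0.0789). The value against LD+FR+TEMP passed without LD+FR+TEMP ZT16 replicate 2 (-0.98, adjusted p = 0.0333). Summed root markers were 107 to 166 CPM in those libraries.

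MAF5, at 0.35 to 2.30 CPM, passed in 1 comparison. In LD+FR+TEMP its evening libraries had 2.30, 1.23 and 1.38 CPM (35, 20 and 22 counts) and its morning libraries 1.09, 0.36 and 0.89 CPM (16, 5 and 13 counts), a rise of 2.06-fold (1.04 ± 0.35, edgeR adjusted p = 0.0338). The evening libraries lay above the morning ones without overlap. The call was lost in 7 of 13 alternatives, among them DESeq2 (1.06, adjusted p = 0.0737) and limma-trend (0.97, adjusted p = 0.0536). It was also lost without LD+FR+TEMP ZT4 replicate 2 (0.71) or 3 (1.138) and without LD+FR+TEMP ZT16 replicate 1 (0.72). In natural LD 2013 the change was similar in size and did not pass (1.06 ± 0.50, edgeR adjusted p = 0.0998), and in natural LD 2014 and lab LD it was 0.34 ± 0.45 and 0.44 ± 0.40.

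Across the 7 members, the counts of calls can be set beside the share of all tested loci called in the same comparison. Against lab LD in natural LD 2014, 1 of 7 members was called at ZT16, where 35.8% of loci were called, and 3 of 7 at ZT4, where 44.3% were. Against lab LD in natural LD 2013, 1 of 7 was called at each time, with 29.1% of loci at ZT16 and 29.0% at ZT4. LD+FR+TEMP against lab LD gave 0 of 7 at ZT16, with 2.65% of loci, and 1 of 7 at ZT4, with 16.9%. At that ZT16, 2 of 7 members had an unadjusted p below 0.05 in edgeR, and DESeq2 and limma-trend also called 0.

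Against LD+FR+TEMP, natural LD 2014 gave 1 of 7 at ZT16 (29.6% of loci) and 2 of 7 at ZT4 (34.1%), and natural LD 2013 gave 1 of 7 at ZT16 (21.0%) and 2 of 7 at ZT4 (23.1%). Natural LD 2014 against natural LD 2013 gave 1 of 7 at ZT16, where only 5.16% of loci were called, and 2 of 7 at ZT4, where 31.0% were. The comparison of evening with morning gave 1 of 7 in natural LD 2014 (45.7% of loci), 1 in natural LD 2013 (35.5%), 2 in LD+FR+TEMP (23.5%) and 1 in lab LD (21.9%). For the difference between settings in that change, 2 of 7 were called for natural LD 2014 against lab LD (30.3%), 1 for natural LD 2013 against lab LD (17.4%), 1 for natural LD 2014 against natural LD 2013 (17.1%) and 0 for LD+FR+TEMP against lab LD (4.24%), where 0 of 7 had an unadjusted p below 0.05 in edgeR and DESeq2 and limma-trend called 0. No count of members is read here as particular to the 7 genes.

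**Figure D3:**
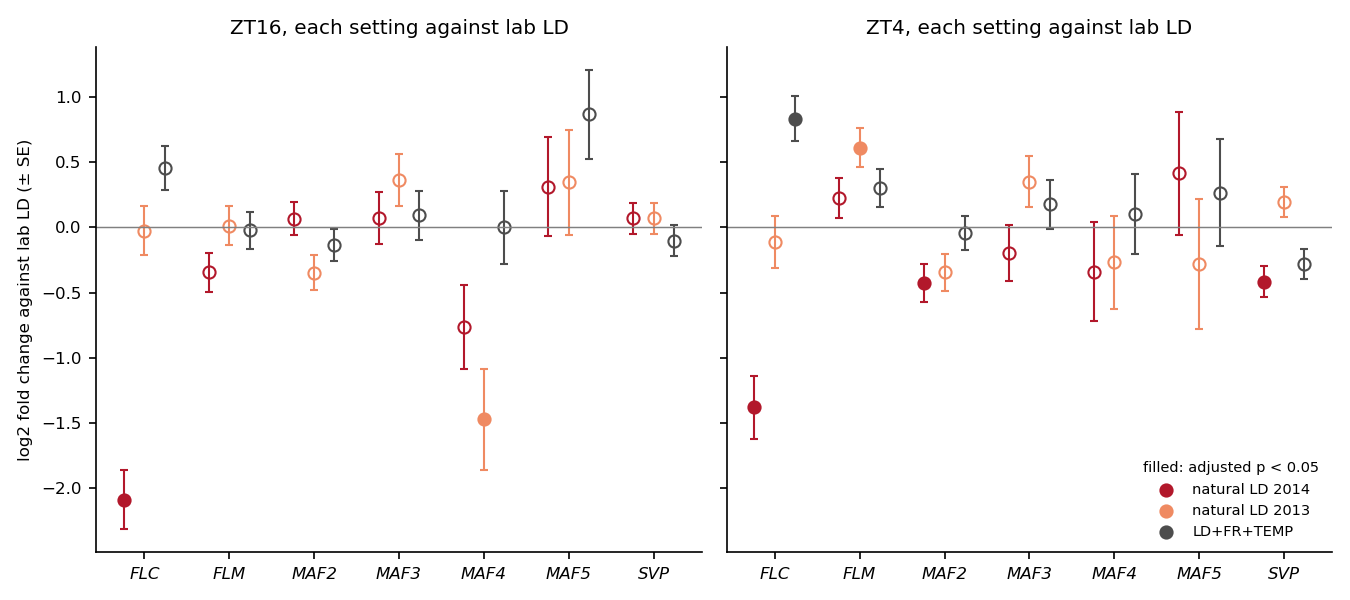
Log2 fold change (± SE) of each member against lab LD at ZT16 (left) and ZT4 (right), for natural LD 2014, natural LD 2013 and LD+FR+TEMP, with filled points at an adjusted p below 0.05. FLC in natural LD 2014 lies at -2.09 and -1.38, MAF4 in natural LD 2013 at -1.47 in the evening, and FLC in LD+FR+TEMP at 0.84 in the morning.

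The members did not share a pattern over the 24 libraries. Pearson correlations of log2 CPM between pairs of members ran from -0.57 for MAF5 with SVP to 0.59 for FLM with MAF3, over libraries that share groups and depth. For each member the 3 tested genes with the most similar pattern were other loci. FLC was nearest to AT1G78170 (r = 0.91), AT5G44578 (0.90) and scpl20 (0.89). SVP was nearest to AT1G76110 (0.91), AT2G29170 (0.89) and CAS1 (0.88). FLM was nearest to WR3 (0.84), AT3G62960 (0.82) and SMO1-1 (0.80), and MAF2 to FIS1B (0.87), AT1G28150 (0.86) and AT5G19540 (0.84). MAF3 was nearest to AT1G72140, AT1G73350 and AT3G13600 (0.69, 0.69 and 0.68), MAF4 to EXT10, GMD1 and AT2G30270 (0.80 each), and MAF5 to AT5G09800, DSS1(V) and TRX2 (0.79, 0.75 and 0.71).

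The genes that set FLC were then read from lists of known regulators. Of 18 activators of FLC (the FRIGIDA complex and the Paf1, SWR1, histone methyltransferase and ubiquitination factors), edgeR called 5 higher and 1 lower in natural LD 2014 against lab LD at ZT16, with a median of 0.12 beside -0.01 over all loci, and 3 higher and 2 lower at ZT4, with a median of 0.11 beside -0.05. Those 6 and 5 of 18 stood beside 35.8% and 44.3% of all loci called, and no count of a list below is read as particular to it. VIP5, a Paf1 complex gene, rose by 0.61 ± 0.13 at ZT16 (edgeR adjusted p = 0.000847), and so did ARP6, a subunit of the SWR1 chromatin remodeller (0.42 ± 0.11, adjusted p = 0.00313). In natural LD 2013 against lab LD 5 were called at ZT16, each of them higher, and 1 higher and 1 lower at ZT4. There 29.1% and 29.0% of all loci were called. Between the 2 years, where FLC was lower in natural LD 2014, edgeR, DESeq2 and limma-trend each called 0 of 18 at both times, and 3 at ZT16 and 0 at ZT4 had an unadjusted p below 0.05. Of all loci, edgeR called 5.16% at ZT16 and 31.0% at ZT4 between the years.

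Among 8 autonomous pathway genes, which lower FLC, FLK, an RNA-binding protein, was higher in both outdoor years than in lab LD. Its differences were 0.49 ± 0.13 at ZT16 and 0.60 ± 0.14 at ZT4 for natural LD 2014 (edgeR adjusted p = 0.00544 and 0.0012), and 0.58 ± 0.14 and 0.43 ± 0.14 for natural LD 2013 (adjusted p = 0.00213 and 0.0218). For the list, natural LD 2014 gave 2 higher and 1 lower at ZT16 and 1 higher at ZT4 against lab LD, with medians of 0.02 and 0.04, beside -0.01 and -0.05 over all loci, of which 35.8% and 44.3% were called. Between the years, 5.16% of all loci were called at ZT16 and 31.0% at ZT4. Of the 8 genes, 0 passed at ZT16 with edgeR, DESeq2 or limma-trend, with 0 at an unadjusted p below 0.05. At ZT4 1 was higher and 1 lower in natural LD 2014. FVE was the higher one (0.37 ± 0.10, edgeR adjusted p = 0.00616). FCA, an RNA-binding protein that acts on FLC antisense transcripts, was higher in the evening than in the morning of natural LD 2014 (1.09 ± 0.18, adjusted p = 1.78e-05).

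Of 11 Polycomb and vernalization genes, VIN3, the cold-induced silencer of FLC, had 0 to 2 counts per library and could not be tested. Natural LD 2014 against lab LD gave 1 lower of 10 tested at ZT16, and 2 higher and 2 lower at ZT4, with medians of 0.03 and 0.17, where 35.8% and 44.3% of all loci were called. VRN2, a Polycomb subunit, was the lower one at ZT16 (-0.61 ± 0.18, edgeR adjusted p = 0.00898), and it was lower in natural LD 2013 too (-0.66 ± 0.19 at ZT16, adjusted p = 0.00947, and -0.81 ± 0.19 at ZT4, adjusted p = 0.00195). At ZT4 of natural LD 2014, LHP1, which binds Polycomb-marked chromatin, was higher than in lab LD (0.74 ± 0.16, edgeR adjusted p = 0.00068), and CLF, the histone methyltransferase of Polycomb, was lower (-0.77 ± 0.20, adjusted p = 0.00294). Between the years, natural LD 2014 gave 1 higher at ZT16 and 2 higher and 1 lower at ZT4, beside 5.16% and 31.0% of all loci called. CLF was lower at ZT4 (-0.74 ± 0.21, edgeR adjusted p = 0.00922). VEL1 was higher at both times (0.34 ± 0.10 at ZT16, edgeR adjusted p = 0.0431, and 0.36 ± 0.10 at ZT4, adjusted p = 0.00691).

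Of 5 genes that process FLM or FLC RNA, 3 were higher than in lab LD at ZT16 in each outdoor year and 4 at ZT4, with 1 lower at ZT16 in natural LD 2014. Of all loci, 35.8% and 44.3% were called at ZT16 and ZT4 in natural LD 2014 and 29.1% and 29.0% in natural LD 2013. The medians of the 5 genes against lab LD were 0.29 and 0.55 at ZT16 and ZT4 in natural LD 2014 and 0.40 and 0.35 in natural LD 2013. LD+FR+TEMP gave 2 of 5 higher at ZT16 and 3 of 5 at ZT4, where 2.65% and 16.9% of all loci were called in either direction. GRP7, a clock-controlled RNA-binding protein that promotes flowering, averaged 5954 ± 1156 CPM in natural LD 2014, 8420 ± 117 CPM in natural LD 2013, 7153 ± 1589 CPM in LD+FR+TEMP and 3132 ± 283 CPM in lab LD at ZT16 (SD, n = 3 each). At ZT4 it averaged 349 ± 76.4, 348 ± 39.6, 901 ± 22.4 and 237 ± 57.4 CPM in the same settings. LD+FR+TEMP exceeded lab LD in GRP7 by 1.19 ± 0.17 at ZT16 (edgeR adjusted p = 0.000369) and by 1.93 ± 0.18 at ZT4 (adjusted p = 4.73e-08).

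The floral activators that FLC and SVP repress were measured in the same libraries. Of 7 targets, 4 were higher and 1 lower in natural LD 2014 than in lab LD at ZT16 and 5 were higher at ZT4, and natural LD 2013 had 3 higher at ZT16 and 5 at ZT4. The shares of all loci called were 35.8% and 44.3% in natural LD 2014 and 29.1% and 29.0% in natural LD 2013. The medians of the 7 targets against lab LD were 0.88 and 1.24 at ZT16 and ZT4 in natural LD 2014 and 0.78 and 1.02 in natural LD 2013. SOC1 averaged 113 ± 14.6 CPM in natural LD 2014, 166 ± 7.52 CPM in natural LD 2013, 62.7 ± 11.4 CPM in LD+FR+TEMP and 37.1 ± 3.11 CPM in lab LD at ZT16 (SD, n = 3 each), a rise over lab LD of 1.61 ± 0.16, 2.16 ± 0.17 and 0.76 ± 0.16 (edgeR adjusted p = 6.11e-08, 1.79e-09 and 0.0135). FT averaged 25.2 ± 7.29, 19.96 ± 3.98, 6.96 ± 1.87 and 1.84 ± 0.20 CPM at ZT4 in the same settings, a rise over lab LD of 3.78 ± 0.26, 3.43 ± 0.26 and 1.92 ± 0.28 (adjusted p = 1.2e-11, 6.74e-10 and 2.57e-05).

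The targets can be set beside FLC. In LD+FR+TEMP at ZT4 both FLC and FT rose over lab LD. In natural LD 2014 FLC fell against lab LD both at ZT16, where SOC1 rose, and at ZT4, where FT rose. In natural LD 2013 FT and SOC1 rose while FLC did not pass against lab LD. Between the years FT gave 0.34 ± 0.21 at ZT4 and -0.40 ± 0.22 at ZT16 (edgeR adjusted p = 0.217 and 0.326), and SOC1 was lower in natural LD 2014 at ZT16 (-0.56 ± 0.16, edgeR adjusted p = 0.0421), where FLC was also lower. Markers of floral organs, summed over 6 genes, were 2.99 to 8.97 CPM in natural LD 2014 and 9.83 to 13.0 CPM in natural LD 2013 at ZT16, against 0.877 to 1.58 CPM in LD+FR+TEMP and 0.489 to 1.75 CPM in lab LD. AP1 was at 0 in 12 of 24 libraries. Their part in the differences of the members was not tested.

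The transcript models behind each locus differed in counts with where they end, which a 3′-tag method makes visible. Models that end 100 bases or more short of the farthest end held smaller shares than the models of the same locus that end nearest to it, while among models that end within 68 bases the order varied. In MAF4, 1 model that ends 68 bases short held 18.0%, against 16.9% and 19.0% for the pair that reaches the farthest end, and in MAF2 the largest share, 27.7%, lay on a model that ends 7 bases short. MAF5's longest-reaching model held 71.1% of its counts, and its models that end 289 and 408 bases short held 20.9% and 8.06%. FLM, with 11 models, had 0.339% of its counts on the model that ends 884 bases short, and MAF2 had 2.84% on the one that ends 510 bases short. SVP's 3 models, which end within 15 bases of each other, held 32.4% to 33.98% each. FLM and MAF2 splice forms that share an end are therefore not separated by these counts, and a change in splicing of FLM or MAF2 was not analysed here.

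**Figure D4:**
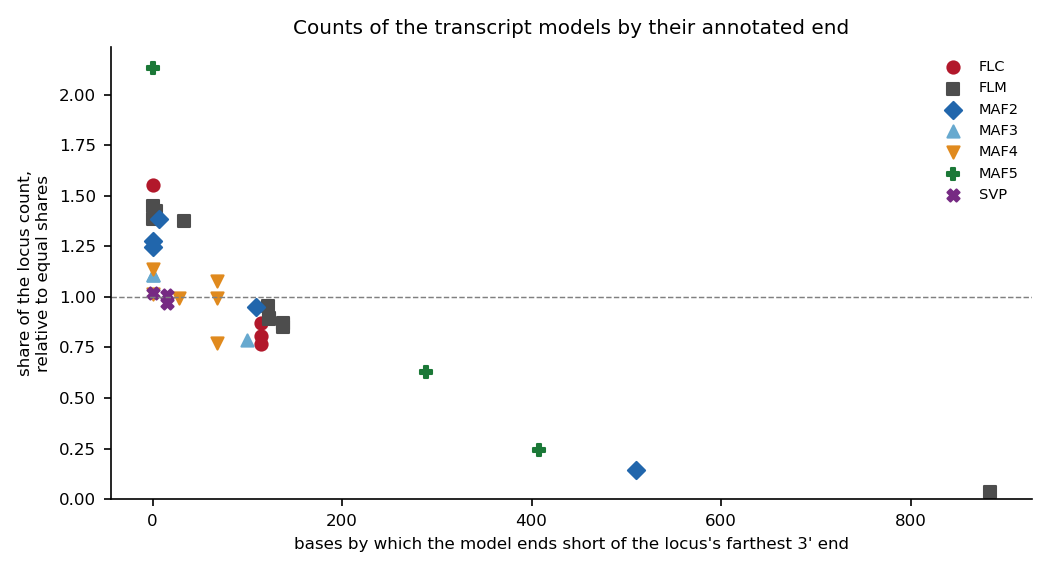
Share of the locus count on each transcript model, divided by the share it would hold if all models of the locus were equal (dashed line at 1), against the number of bases by which the model ends short of the farthest annotated 3′ end. Points for all 35 models of the 7 members are shown, and those ending 289 to 884 bases short lie below 1.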

How the data were processed

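The authors deposited 1 file of raw counts per transcript model for each of 24 libraries. Per the submitters' processing notes, bcl2fastq 2.17.1.14, Trimmomatic 0.36, Bowtie2, edgeR and the TAIR10 build were used; the counting step, its use of strand and its handling of reads shared by models are not given in the sources used here. A normalized table of the whole series was not used. Counts of 48359 models were summed to 27655 loci, of which 27445 matched a name in the RefSeq annotation, and 48148 models matched its transcripts. The members and the gene lists were chosen with earlier results of these data known, and 4 list genes whose name the annotation does not pair with their locus were left out, 1 of 19 FLC activators and 3 of 8 RNA-processing genes.

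Libraries held 6543615 to 16089156 counts. Intervals on shares of counts cover counting error only. With R 4.3.3 and edgeR 4.0.16, library sizes were scaled by the trimmed mean of M-values, loci were kept by a minimum count of 10 and total of 15, and 1 mean per group was fitted over all 24 libraries by quasi-likelihood, for 20 contrasts with Benjamini-Hochberg adjustment over 18797 loci at 0.05. Alternatives were other size factors, DESeq2 1.42.0, limma-trend (limma 3.58.1), no filter and fits of the compared groups alone. Further ones were the replicate number as a block, a single random thinning to 6543615 counts, the largest transcript model alone, and each library left out. The 7 members are reported in every comparison. Of each pathway list, up to 3 genes with the smallest adjusted p past the threshold and no overlap of libraries may be named, and FT and SOC1 always; the 3 loci most correlated with each member over 24 libraries (log2 CPM, prior count 2) are named as well. Replicates of a group were compared by chi-square over loci, which gave 3.09 to 30.6 per locus in 24 pairs.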

Additional observations from a re-analysis of the deposited data

Results flagged for a closer look

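The evening-to-morning change (ZT16 over ZT4) of SVP differed between settings by a test of the difference itself. In natural LD 2014 it exceeded the change in lab LD by 0.49 and the change in natural LD 2013 by 0.61 on the log2 scale (edgeR adjusted p = 0.031 and 0.014).

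The same test passed for FLM, whose change was below that of lab LD both in natural LD 2014 and in natural LD 2013 (-0.57 and -0.60, edgeR adjusted p = 0.0453 and 0.0497). Each of the 4 calls was lost when some single libraries were left out, as given with the results. No test of single libraries within a group of 3 was made.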

How the results depend on the processing

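Of 140 member values, 25 passed with all libraries, and 15 of these passed under each alternative that tested them: 8 of 8 for FLC, 4 of 8 for SVP, 2 of 2 for MAF4, 1 of 3 for MAF2, 0 of 3 for FLM and 0 of 1 for MAF5. Of 2055 alternative values, 1957 kept their side of the threshold, 60 lost a call, 38 gained one and 0 reversed a call. Changes of sign occurred in 117 of them, over 41 member values, 0 of which were called either way.

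The number of members called moved as follows, with the cause not tested. For natural LD 2014 against LD+FR+TEMP at ZT4 it was 1 in place of 2 with DESeq2 size factors, DESeq2, no filter, only the groups compared and the replicate block. For natural LD 2014 against natural LD 2013 at ZT4 it was 4 in place of 2 with limma-trend and with only the groups compared. With only the groups compared it was 2 in place of 1 at ZT16 for natural LD 2014 against lab LD, natural LD 2013 against lab LD and natural LD 2014 against natural LD 2013, and for ZT16 against ZT4 in natural LD 2013. For ZT16 against ZT4 in natural LD 2014 it was 2 in place of 1 with limma-trend, only the groups compared and thinned libraries. For ZT16 against ZT4 in LD+FR+TEMP it was 1 in place of 2 with DESeq2, limma-trend, only the groups compared and thinned libraries, and 0 with the largest transcript model. Thinning gave 0 in place of 1 at ZT16 for natural LD 2013 against either chamber, where MAF4 no longer passed the filter. For the difference in evening-to-morning change, natural LD 2014 against lab LD gave 0 with only the groups compared and 1 with the replicate block, thinning or the largest model, in place of 2. Natural LD 2013 against lab LD gave 0 in place of 1 with each of those 4, and natural LD 2014 against natural LD 2013 gave 2 in place of 1 with thinning.

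Leaving out 1 library at a time, the count of members called ran from 1 to 2 in LD+FR+TEMP against lab LD at ZT4, in natural LD 2013 against lab LD at both times, in natural LD 2014 against lab LD at ZT16, against LD+FR+TEMP at both times and against natural LD 2013 at ZT16, and for ZT16 against ZT4 in natural LD 2014 and lab LD. It ran from 2 to 4 in natural LD 2014 against natural LD 2013 at ZT4 and from 0 to 2 for ZT16 against ZT4 in LD+FR+TEMP. For the difference in change it ran from 0 to 1 for natural LD 2013 against lab LD, and from 0 to 2 for natural LD 2014 against lab LD and against natural LD 2013.

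Over all settings, libraries with the same replicate number did not deviate together (84 pairs, r from -0.24 to 0.21, median -0.018, 5 over 0.1). Of 24 libraries, 3 correlated best with their own number, so the replicate block was not read as pairing. Between LD+FR+TEMP and lab LD, however, r was positive throughout, at 0.107, 0.079 and 0.127 at ZT4 and 0.114, 0.210 and 0.009 at ZT16. A pairing of these chambers was not tested. MAF4 and MAF5 had too few counts for 13 of the fits of compared groups alone and for all 40 after thinning, and MAF4 for 20 with the largest model. At the 9 to 22 counts that natural LD 2014 libraries gave FLC and the 3 to 4 that natural LD 2013 libraries gave MAF4 at ZT16, counting error is large.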

Other observations

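The FLC transcript model that ends farthest downstream held 109 of 371 FLC counts outdoors (29.4%, 95% exact binomial interval 24.8% to 34.3%) and 596 of 1441 indoors (41.4%, 38.8% to 44.0%), intervals that cover counting error only. Library by library, its share was 11.1% to 40.9% outdoors (median 27.0%, n = 12) and 27.8% to 52.7% indoors (median 39.0%, n = 12), so the places overlapped. The difference was not tested, and how reads shared by models were assigned is not given in the sources used here.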
